A study of Mus musculus with 34 samples.

Results

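The effect of losing Ppara in the whole body was compared with the effect of losing it in the liver alone, in livers of mice that all received fenofibrate. The measure was an interaction, the whole-body effect (KO minus WT) minus the liver-only effect (LKO minus LWT). It was positive where a gene was higher, relative to its own controls, in whole-body knockout mice than in liver knockout mice. The rule takes 19 of the 34 liver samples: 5 whole-body Ppara knockout mice (KO), 4 wild-type mice (WT), 5 mice with Ppara knocked out in the liver (LKO) and 5 mice of the matching control line (LWT). All of the detected genes, 15765 with a name, entered the comparison. All 19 mice were male, C57Bl/6J, 14 weeks old, fed chow, given fenofibrate at 100 mg per kg per day by gavage for 10 days and killed at zeitgeber time 14. The same contrast in 15 other mice, which received gum arabic at 3% as vehicle (3 KO, 4 WT, 4 LKO and 4 LWT), served as a second set that shares no mouse with the first. The promoter that drives the liver deletion, the deleted part of Ppara, and whether KO and WT mice were littermates are not given in the sources used here. The Ppara genotype and any other inherited difference between KO and WT mice therefore cannot be told apart.

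PPARA is a nuclear receptor that pairs with RXR and binds direct repeats of a short DNA half-site near its target genes. Fibrates such as fenofibrate are its drug ligands, and in the liver it switches on fatty acid uptake, peroxisomal, mitochondrial and microsomal oxidation and ketone body production. PPARA is also made outside the liver, for example in heart, kidney, brown fat, muscle and gut, so a whole-body knockout removes it from organs that a liver knockout leaves intact.

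Each sample is RNA from the liver of 1 mouse on a one-color array. Levels are log2 signals from which each array's own 75th percentile was subtracted, so a gene at 0 sits at that percentile, and 1 unit is a 2-fold difference. Differences are log2 ± SE. A gene is said to be called, to rise or to fall when its limma p, adjusted over all 15765 genes, was under 0.05. Per array 50.6% to 63.1% of probes were well above background and no spot was saturated. Replicates of the fenofibrate groups correlated across probes at 0.983 to 0.994. Of 15 hepatocyte markers all were detected.

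Ppara itself was lower in both knockouts and gave no called difference between them. The brightest of its 3 detected probes (chromosome 15, 85632110 to 85632169 on mm9) read 5.10, 6.06, 5.97, 5.33 and 5.62 in the 5 KO mice and 7.06, 7.15, 6.84 and 7.12 in the 4 WT mice. The liver line gave 6.09, 6.11, 6.20, 5.87 and 5.84 in LKO and 7.0, 7.05, 6.97, 7.11 and 6.94 in LWT. No knockout mouse reached its controls, the KO and LKO ranges overlapped, and both knockouts kept signal above background. The whole-body effect was -1.43 ± 0.15 (adjusted p = 3.79e-09) and the liver-only effect -0.99 ± 0.14 (adjusted p = 1.27e-06). Their difference was -0.43 ± 0.20 (adjusted p = 0.176), and the other probes gave -0.67 and -0.36. Where these probes lie relative to the deletion is not known, so they check the labels only in part. Of 17 detected genes of the PPAR, RXR and coactivator list, none was called in the interaction, against 12.2% of all genes.

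The effects of the knockouts on fenofibrate differed between the lines in a minority of genes. The interaction was called for 1930 genes, 12.2% of those tested (3940 at an unadjusted p under 0.05), with 945 higher (5.99%) and 985 lower (6.25%). Of these, 740 genes (4.69%) differed at least 2-fold. The median interaction over all genes was -0.0035. The KO minus WT effect was the larger part in 1430 of the 1930 genes (74.1%, beside 57.6% of all genes). Across the called genes the median size of the KO minus LKO difference was 0.60, and that of the WT minus LWT difference was 0.18. The control lines themselves differed in 84 genes (0.533%). Of all genes 3481 (22.1%) fell and 3346 rose in KO, and 2896 (18.4%) fell and 2882 rose in LKO.

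**Figure D1:**
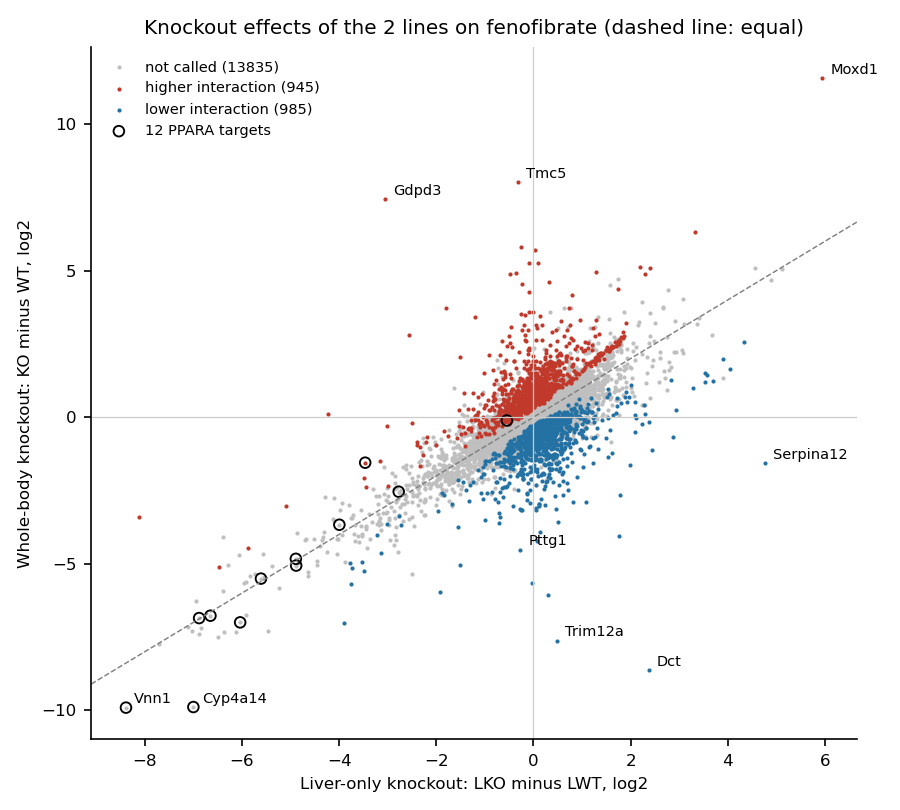
Each point is 1 of 15765 genes. The horizontal axis is LKO minus LWT and the vertical axis KO minus WT, both log2 in fenofibrate mice; red and blue mark the 945 and 985 called genes and open circles 12 PPARA targets. Most targets lie along the dashed line of equal effects, while Dct, Trim12a, Tmc5 and Gdpd3 lie far from it.

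Most classic PPARA targets fell in both knockouts. Of 34 genes of peroxisomal fatty acid oxidation, 27 fell in KO and 27 fell in LKO, with median effects of -1.58 and -1.71. Their median interaction was -0.03, with Acox2 and Acot6 called higher and Ech1 and Pex11g lower (11.8% called). Pex11g, a peroxisome division gene, lost its call in 16 of the 19 fits that leave out 1 array (adjusted p up to 0.0908), and a second probe gave -0.20. Of 27 genes of mitochondrial oxidation, 25 fell in KO and 25 in LKO (medians -1.70 and -1.70), and 1 was called in the interaction. Of 7 ketogenesis genes 4 fell in KO and 4 in LKO, and none was called in the interaction. Microsomal omega-oxidation gave 11 falls of 15 genes in each line and 2 called interactions, Cyp4f14 and Cyp4f15. Lipid uptake and droplet genes gave 25 and 24 falls of 36, with 2 called higher and 3 lower in the interaction. Over all genes the medians of the effects were -0.001 for KO minus WT and 0.009 for LKO minus LWT. The interaction was called for 12.2% of all genes, 3.7% of mitochondrial, 13.3% of omega-oxidation and 13.9% of lipid uptake and droplet genes.

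Cd36, which carries fatty acids into the cell, shows the pattern. It read 3.93, 4.22, 3.35 and 3.37 in WT and -0.02, 0.16, 0.24, -0.12 and -0.03 in KO, 4.03, 4.02, 3.76, 4.18 and 3.54 in LWT and -0.04, 0.04, -0.45, -0.06 and 0.06 in LKO. The knockouts overlapped each other and neither reached a control mouse. Its effects were -3.67 ± 0.17 and -3.99 ± 0.16, with an interaction of 0.33 ± 0.24 (adjusted p = 0.436). Ehhadh, the peroxisomal bifunctional enzyme, read 4.50, 4.54, 3.87, 4.32 and 4.66 in KO and 4.80, 4.76, 4.6, 4.6 and 4.64 in LKO against 9.22 to 9.71 in WT and 9.39 to 9.89 in LWT. The interaction was -0.18 ± 0.40 (adjusted p = 0.835). Pdk4, the kinase that restrains pyruvate oxidation, gave 0.06 ± 0.65, the droplet coat gene Plin2 0.23 ± 0.34, the thioesterase Acot2 -0.12 ± 0.49 and the acyltransferase Mogat1 0.10 ± 0.34. None of these was called, with adjusted p from 0.738 for Plin2 to 0.969 for Pdk4. A missed call does not show that the effects were equal.

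Some targets with the deepest loss could not be placed firmly. Vnn1, a pantetheinase, read -4.66, -4.48, -5.88, -4.16 and -5.04 in KO, not well above background in any mouse, and -3.67, -3.02, -2.60, -3.14 and -4.16 in LKO, above background in all 5. WT mice read 4.90 to 5.35 and LWT mice 4.61 to 5.38. Set against the dimmest signal still well above background, Vnn1 was at least 708-fold lower in KO than in WT and at least 2.12-fold lower in KO than in LKO. The fitted interaction was -1.52 ± 0.52 (adjusted p = 0.0527, but 0.0243 in a fit on the 19 fenofibrate arrays alone and 0.0404 with slide as a block). Over 9 alternative settings it ran from -1.69 to -0.09, with a call in 3 of them. Since KO lay below background, the size of this interaction was not measured. Cyp4a14, a fatty acid omega-hydroxylase, read -0.25, -1.51, -0.94, 2.61 and 0.89 in KO and 3.10, 3.40, 4.09, 2.97 and 1.72 in LKO, beside 9.91 to 10.15 in WT and 9.85 to 10.37 in LWT. In 4 of the 5 KO mice it lay below every LKO mouse, and the interaction was -2.89 ± 1.33 (adjusted p = 0.169, but 0.0259 in the fit on the 19 fenofibrate arrays). Cyp4a10 gave -0.96 ± 0.87 (adjusted p = 0.544). Probes of the Cyp4a genes may share signal with near-identical copies. Fgf21, a hormone released by the liver, read -6.18, -6.43, -4.46, -6.25 and -6.05 in KO, with 1 mouse above background, and -6.16, -5.25, -3.74, -5.35 and -4.25 in LKO, with 2. Its interaction was 0.03 ± 0.93 (adjusted p = 0.99).

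**Figure D2:**
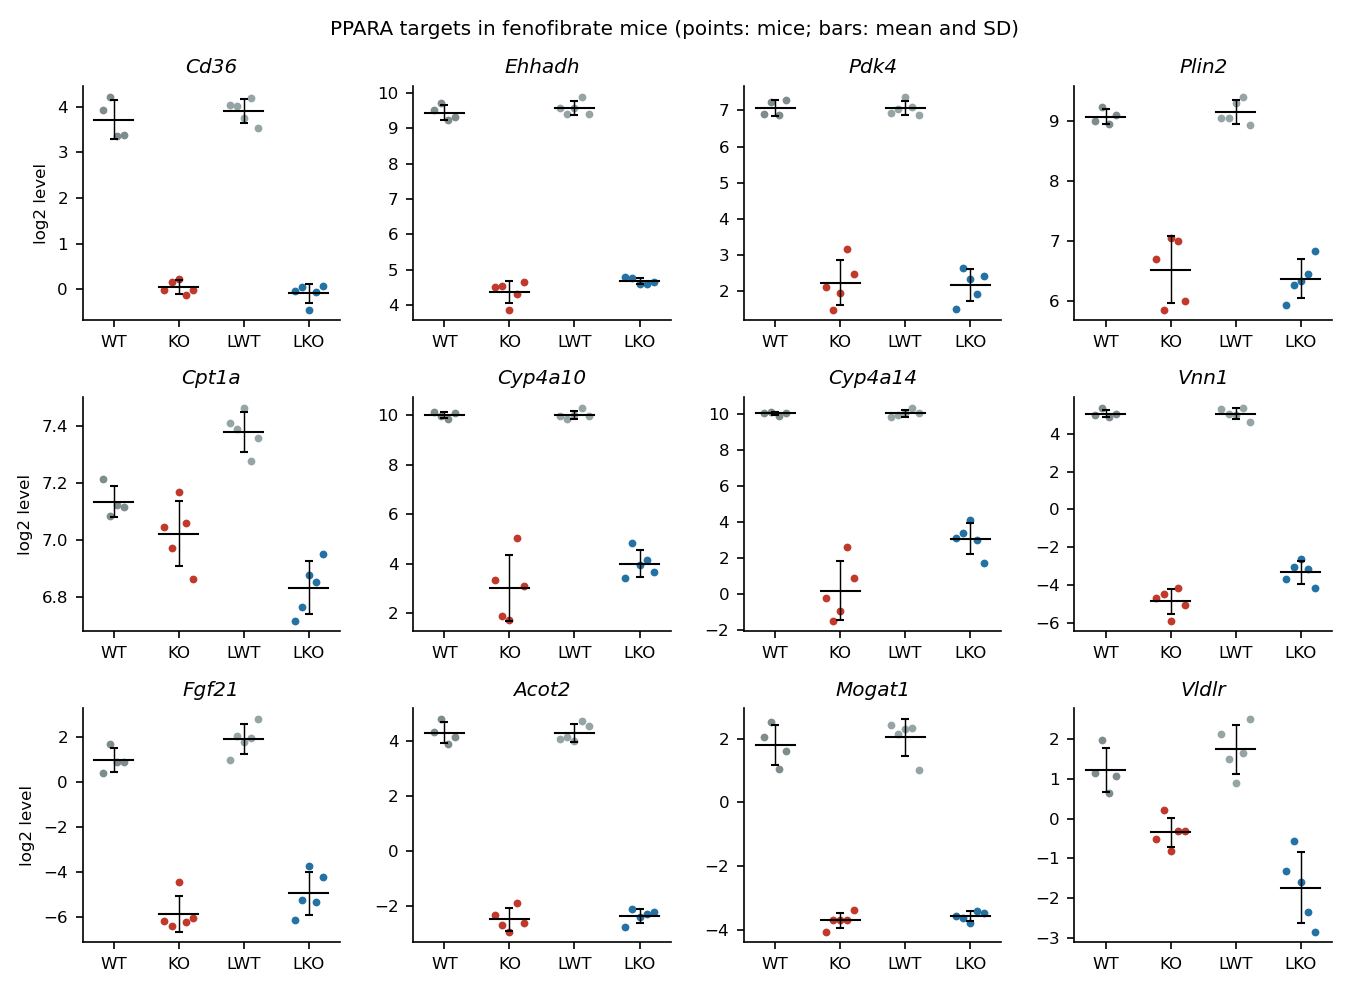
Levels of 12 PPARA targets in every fenofibrate mouse (log2, vertical axes differ between panels); points are mice and bars the mean and SD of 4 WT, 5 KO, 5 LWT and 5 LKO mice. Cd36 reads 3.35 to 4.22 in WT and -0.12 to 0.24 in KO, and Vldlr stands higher in KO (-0.81 to 0.21) than in LKO (-2.84 to -0.56).

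A smaller group of PPARA-linked genes fell less in the whole-body knockout than in the liver knockout. Vldlr, the receptor for very low density lipoprotein, read -0.50, 0.21, -0.81, -0.32 and -0.31 in KO and -1.32, -0.56, -1.58, -2.35 and -2.84 in LKO, against 1.15, 1.97, 0.65 and 1.06 in WT and 2.12, 1.5, 0.89, 1.64 and 2.50 in LWT. Every KO mouse but 1 lay above every LKO mouse. The interaction was 1.91 ± 0.56 (adjusted p = 0.023), and it lost its call on leaving out replicate 5 of LKO or replicate 3 of WT (adjusted p up to 0.0607). Mfsd2a, a transporter of lysophospholipids, read 3.39, 2.47, 3.05, 3.81 and 3.20 in KO and 1.33, 1.60, 1.52, 2.16 and 0.49 in LKO, with no overlap. WT mice read 5.88 to 6.62 and LWT mice 6.35 to 6.66. It fell 8.21-fold in KO and 34-fold in LKO, an interaction of 2.05 ± 0.41 (adjusted p = 0.00101). The small GTPase gene Rab30 (1.44 ± 0.47, adjusted p = 0.0403) and Il1rn, which encodes the interleukin-1 receptor antagonist (1.43 ± 0.36, adjusted p = 0.00812), went the same way. Rab30 lost its call in 14 of the 19 fits that leave out 1 array. A second probe of it gave 0.81, and the mean of its probes 1.12 (adjusted p = 0.104). Acot6, an acyl-CoA thioesterase, gave -0.69 in KO and -2.18 in LKO, both called (interaction 1.5 ± 0.34, adjusted p = 0.00342). A second probe of Acot6 gave 0.02 in KO and -1.30 in LKO, an interaction of 1.32. Cpt1a, the gatekeeper of mitochondrial fatty acid entry, gave a small difference, with -0.11 in KO, without a call, and -0.55 in LKO (interaction 0.43 ± 0.10, adjusted p = 0.00542).

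Other genes of these lists, among them G0s2, Plin4 and Ech1, fell further in the whole-body knockout, while Tmem25 and Acox2 moved in opposite directions in the knockouts. G0s2, an inhibitor of the lipase that opens fat droplets, read 1.85, 2.40, 2.22, 1.43 and 1.71 in KO and 3.18, 3.38, 3.93, 3.59 and 3.56 in LKO. Control mice read 6.43 to 6.69 in WT and 6.57 to 6.74 in LWT. The knockouts did not overlap, and the interaction was -1.51 ± 0.39 (adjusted p = 0.00909), a call that was lost in the authors' deposited table (-1.11, adjusted p = 0.184). The droplet coat gene Plin4 fell 13.4-fold in KO and 2.95-fold in LKO (interaction -2.19 ± 0.56, adjusted p = 0.00924). Ech1, a peroxisomal and mitochondrial isomerase of unsaturated fatty acids, read 3.62, 3.52, 3.36, 3.59 and 3.51 in KO against 4.58, 4.85, 4.76, 4.53 and 4.80 in LKO, with an interaction of -0.93 ± 0.15 (adjusted p = 5.79e-05). The authors' deposited table gave -0.73 for Ech1, without a call (adjusted p = 0.148). Of 28 other PPARA targets, 25 fell in KO and 22 in LKO. The interaction called 3 higher and 3 lower (21.4%, beside 12.2% of all genes) around a median of -0.03. Tmem25, a membrane protein gene of that list, was the largest of them at -3.72 ± 0.41 (adjusted p = 2.2e-07). It fell in KO to -0.62 to 1.62 from 3.29 to 3.56 in WT, while LKO (4.22 to 4.58) lay above LWT (3.39 to 3.8). Acox2, an oxidase of branched side chains, rose in KO (0.59 ± 0.12) and fell in LKO (-0.53 ± 0.11), an interaction of 1.12 ± 0.17 (adjusted p = 1.98e-05).

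Many of the largest interactions, but not all, came from genes that set the KO mice apart from all other mice. In 1256 genes (7.97%) every KO mouse on fenofibrate lay outside the range of the 14 other fenofibrate mice. The same count was 169 for WT, 390 for LKO and 168 for LWT. Among the 1256 genes, 825 were called in the interaction, which is 42.7% of the called genes. Of the 1256, 581 (46.3%) also had all 3 KO vehicle mice outside the range of the 12 other vehicle mice in the same direction, beside 9.67% of all genes in either direction. Trim12a, Dct, Kcne3, Tagln3, D4Ertd617e and Vnn1, 6 genes in all, were above background in every WT, LKO and LWT mouse and in none of the KO mice. Another 12 were above background in every KO mouse and in no other, among them Tmc5, Wdr72, Elobl, the lectin genes Cd209b and Cd209g, Fn3krp and Vmn2r18. On vehicle 4 of the 6 and 5 of the 12 behaved in the same way. No gene stood apart in this on-off way in WT, LKO or LWT.

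Trim12a, a member of the tripartite motif family (chromosome 7), read -5.89, -6.16, -6.60, -6.00 and -6.90 in KO, below background in all 5 mice. It read 1.47, 1.09, 1.26 and 1.42 in WT, 2.09, 2.08, 1.80, 1.89 and 1.99 in LKO and 1.46, 1.37, 2.06, 1.19 and 1.37 in LWT. Measured as for Vnn1, it was at least 52.5-fold lower in KO than in WT and at least 83.1-fold lower than in LKO (interaction -8.10 ± 0.26, adjusted p = 3.38e-19). A second probe gave -4.51, and probes of this family may share signal with close copies. Dct, dopachrome tautomerase of the melanin pathway (chromosome 14), was below background in all 5 KO mice (-5.87, -6.34, -6.60, -6.08 and -6.95) and above background in all 14 other fenofibrate mice. It read 2.36, 3.17, 1.90 and 1.64 in WT, 4.63, 4.57, 4.47, 4.50 and 5.21 in LKO and 2.77, 2.85, 2.56, 3.46 and -0.13 in LWT, where 1 mouse was low. KO was at least 102-fold below WT and at least 542-fold below LKO (interaction -11.01 ± 0.73, adjusted p = 5.9e-12; a second probe gave -9.85). Pttg1, the securin that holds sister chromatids together, read 0.10, 0.97, 0.55, 0.40 and 0.75 in KO and 5.00 to 5.13 in WT, 4.61 to 5.02 in LKO and 4.96 to 5.29 in LWT. KO stood apart, with an interaction of -4.24 ± 0.17 (adjusted p = 8.88e-17; a second probe gave -4.18). Kcne3, a potassium channel subunit, was at least 15.1-fold lower in KO than in WT. Camk2b, a calmodulin-dependent kinase, read -6.05 to -4.25 in KO against 0.63 to 1.83 in WT and 1.72 to 2.18 in LKO. Camk2b was above background in 1 of the 5 KO mice. Sugct, a glutarate CoA transferase gene, fell in both knockouts and further in KO. Its means were 3.93 ± 0.21 (SD, n = 4) in WT and -2.02 ± 0.34 (SD, n = 5) in KO, 3.98 ± 0.26 in LWT and 2.06 ± 0.08 in LKO (interaction -4.02 ± 0.23).

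In the other direction, Tmc5, a transmembrane channel-like gene (chromosome 7), read 1.79, 0.28, 1.82, 1.83 and 0.21 in KO and was below background in each of the 14 other fenofibrate mice. It was at least 55.3-fold higher in KO than in WT and at least 44-fold higher than in LKO (interaction 8.34 ± 0.71, adjusted p = 1.04e-09; a second probe gave 2.89). Wdr72, a WD-repeat gene, was likewise seen in KO alone (-1.97, -1.89, -1.30, -1.56 and -1.31), at least 8-fold above WT. Elobl, an elongin B-like gene, was at least 19.6-fold above WT. Prelid2 read 2.36, 2.09, 2.16, 2.84 and 2.32 in KO against -1.20, -0.49, -1.71 and -2.05 in WT, and -2.59, -2.10, -2.41, -2.46 and -2.45 in LKO against -0.50, -1.13, -0.49, -1.15 and 0.24 in LWT. It thus rose in KO and fell in LKO (interaction 5.52 ± 0.37, adjusted p = 5.9e-12). Hddc3, an HD-domain gene, did the same (interaction 4.62 ± 0.34, adjusted p = 5.59e-11).

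**Figure D3:**
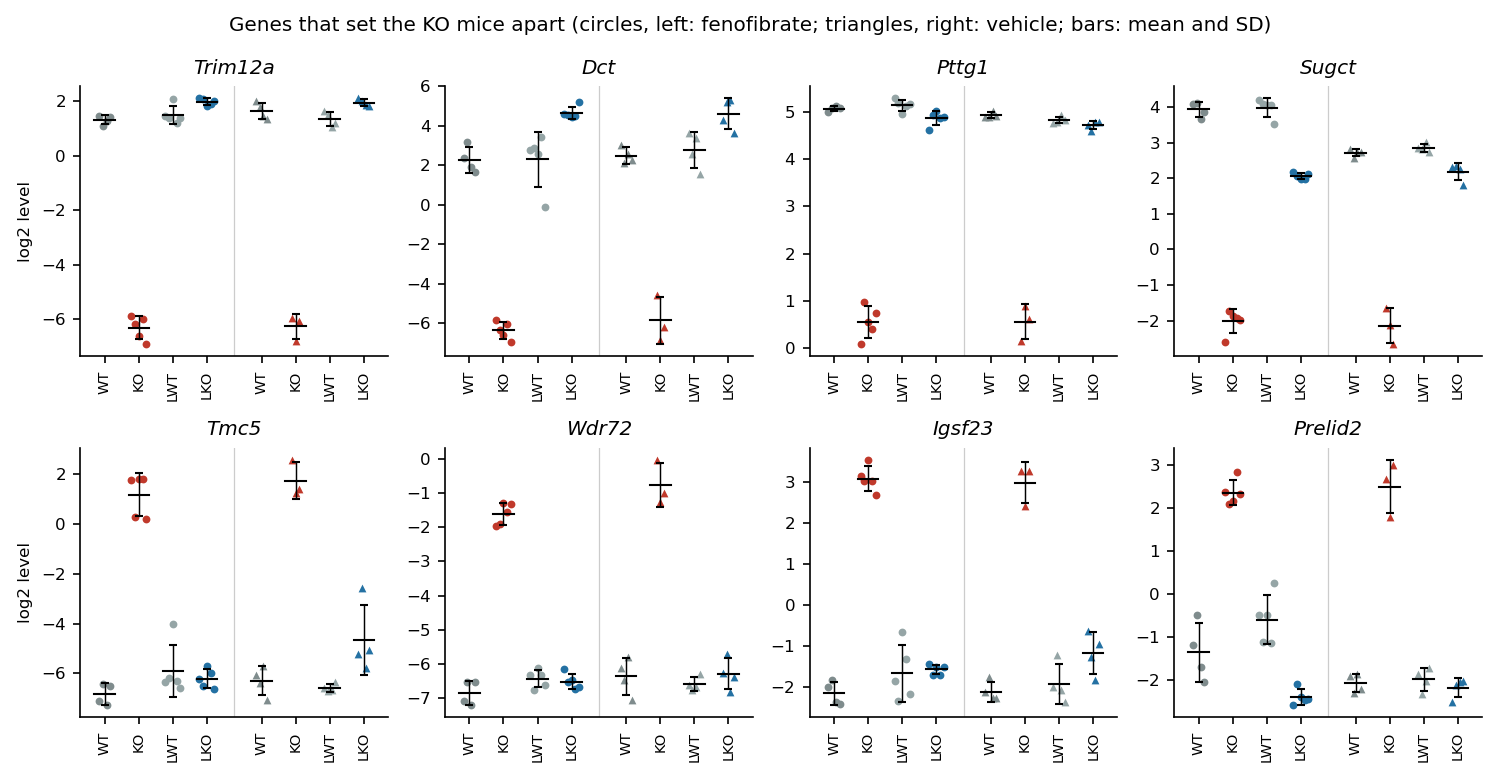
Levels of 8 genes in every mouse (log2, vertical axes differ), on fenofibrate at left and on vehicle at right of each panel; bars are the mean and SD. In each panel the KO mice stand apart from the other 3 lines, as for Trim12a (-6.90 to -5.89 in KO and 1.09 to 1.47 in WT on fenofibrate) and Igsf23 (2.67 to 3.54 and -2.42 to -1.83).

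Igsf23, an immunoglobulin superfamily gene (chromosome 7), was among the largest positive interactions and carries the letters of a PPAR half-site repeat near its start. It read 3.15, 3.01, 3.54, 3.03 and 2.67 in KO, -2.02, -1.83, -2.38 and -2.42 in WT, -1.46, -1.70, -1.51, -1.71 and -1.52 in LKO and -1.86, -2.35, -0.65, -1.32 and -2.19 in LWT. All 5 KO mice lay above the 14 others. The whole-body effect was 5.24 ± 0.28, the liver-only effect 0.10 ± 0.26 and the interaction 5.15 ± 0.38 (adjusted p = 5.59e-11). One of its RefSeq promoter windows, 300 bases across a start, is shown because it holds the repeat AGGTCANAGGTCA, called DR1, in the exact form searched on both strands. Capitals mark the match, which lies 72 bases before the start.
Igsf23 (GRCm38.p6, RefSeq, minus strand, chr7:19950694-19950993): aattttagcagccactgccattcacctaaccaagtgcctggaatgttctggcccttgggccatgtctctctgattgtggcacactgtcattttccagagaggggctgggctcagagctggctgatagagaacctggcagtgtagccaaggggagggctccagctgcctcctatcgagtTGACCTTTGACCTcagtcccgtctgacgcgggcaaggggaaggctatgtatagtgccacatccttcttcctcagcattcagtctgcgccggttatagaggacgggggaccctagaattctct
Of 27025 genes with such a window, 13 (0.0481%) held the repeat, 7 of them among 12012 tested genes with a window. Among the 12 PPARA targets shown by mouse, 9 had a window and none held it. A match is a description of letters and not a site of binding.

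Several of the largest interactions belonged to genes that also had a large liver-only effect. Serpina12, which encodes the adipokine vaspin, read -1.85, -1.51, -1.85, -0.82 and -1.42 in LKO, above background in all 5 mice, and was below background in every LWT and KO mouse. In WT it was above background in 2 of 4 mice (-4.25, -6.28, -3.33 and -5.50). It was at least 6.56-fold higher in LKO than in LWT, with an interaction of -6.32 ± 0.66 (adjusted p = 6.3e-08). Over 9 alternative settings this interaction ran from -6.71 to -1.52 and kept its call. Moxd1, a monooxygenase gene, rose in both knockouts and further in KO, with fitted effects of 11.56 in KO and 5.95 in LKO. It read 6.91, 5.36, 6.35, 6.10 and 5.53 in KO, at least 1610-fold above WT, and 2.12, 0.69, 1.45, 2.30 and 4.90 in LKO against -5.12, -4.69, -0.62, -3.55 and -4.30 in LWT (interaction 5.61 ± 1.42, adjusted p = 0.00785).

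Gdpd3, a glycerophosphodiesterase gene, had the largest positive interaction, 10.51 ± 1.16 (adjusted p = 2.02e-07), and was uneven within groups. It read 3.66, 3.47, 3.43, 4.13 and 3.43 in KO and -3.64, -3.55, -3.8 and -4.28 in WT, but -3.67, -3.60, -4.77, -3.48 and 1.44 in LKO and 0.08, 1.02, 1.46, 2.11 and -3.44 in LWT, where 1 mouse of each group lay far from the rest. Serpina3i also varied within the liver line, with -1.94 to 0.70 in LKO and -2.23 to 1.69 in LWT, beside 1.62 to 2.92 in KO and -2.77 to -2.37 in WT (interaction 5.37 ± 0.98; a second probe gave 1.05). Pbx4, a homeobox gene, was high in 4 of 5 LWT mice (2.17, 1.95, -3.62, 1.18 and 1.85) and low in the other groups, with an interaction of 4.34 ± 1.26 (adjusted p = 0.0211). Of the remaining genes with large negative interactions, Adh6a (-4.45), the homeobox gene Lhx3 (-3.98) and the somatostatin receptor gene Sstr2 (-3.61) were below background in all 5 KO mice and above it in all 5 LKO mice. Lhx3 had no value on 1 LWT array. Its interaction was -0.41 with normexp background and quantile normalization together (adjusted p = 0.688) and -0.71 in the authors' deposited table (adjusted p = 0.482). Over 9 alternative settings Adh6a ran from -4.99 to -0.77 and Sstr2 from -3.64 to -0.76, so their sizes depended on the processing. Both kept their calls. Olfr1535, an odorant receptor gene, gave -5.83 ± 0.90 and was below background in 1 LWT mouse.

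Amino acid catabolism and the urea cycle was the gene group with the most calls in 1 direction among the pathway lists. Of 40 genes, 23 were called higher and 0 lower (57.5% called, against 12.2% of all genes), with a median interaction of 0.53. In KO 26 of the 40 rose and 3 fell (median 0.62), while in LKO 12 rose and 7 fell (median 0.06). The median KO minus LKO difference was 0.18 (11 called higher and 2 lower) and the median WT minus LWT difference -0.28 (3 called). Averaged over the list and relative to the mean of all 34 mice, the log2 level ran from 0.13 to 0.38 in KO, from -0.45 to -0.26 in WT, from -0.06 to 0.13 in LKO and from -0.15 to 0.004 in LWT. WT mice lay below all others.

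Hal, the histidine ammonia lyase, read 6.66, 6.69, 6.30, 6.44 and 6.26 in KO and 4.98, 5.12, 4.91 and 5.09 in WT, but 5.91, 6.32, 5.92, 6.33 and 6.00 in LKO and 6.18, 6.00, 5.98, 5.89 and 6.24 in LWT. KO lay above WT without overlap while LKO and LWT overlapped (interaction 1.41 ± 0.20, adjusted p = 8.25e-06; a second probe gave 0.64). Cth, cystathionine gamma-lyase of cysteine synthesis, gave 1.54 ± 0.25 (adjusted p = 5.87e-05), with 6.99 to 7.81 in KO, 5.88 to 6.26 in WT, 6.22 to 6.83 in LKO and 6.61 to 6.83 in LWT. Bckdhb, a subunit of the branched-chain ketoacid dehydrogenase, read 7.02, 7.04, 6.95, 7.03 and 6.96 in KO and 6.32, 6.34, 6.25 and 6.00 in WT, 5.98, 5.96, 5.96, 5.93 and 5.87 in LKO and 6.40, 6.32, 6.35, 6.32 and 6.22 in LWT. It rose in KO and fell in LKO (interaction 1.15 ± 0.09, adjusted p = 8.83e-11), as did Aass, the first enzyme of lysine breakdown (1.15 ± 0.25, adjusted p = 0.002). Cps1, the entry enzyme of the urea cycle, rose in both lines, by 0.88 in KO and 0.38 in LKO (interaction 0.50 ± 0.15, adjusted p = 0.0238). The aminotransferase Tat gave 0.52 ± 0.16 (adjusted p = 0.0349) and lost its call under 3 other normalizations, without a filter and in 12 of the 19 fits that leave out 1 array. Leaving out WT replicate 4 ended the call of Cps1 (adjusted p = 0.0556). Asns, asparagine synthetase, is on the stress list and read 2.34, -0.70, 1.79 and 0.35 in WT against 3.46 to 4.91 in KO, 3.44 to 5.41 in LKO and 3.00 to 4.57 in LWT (interaction 2.70 ± 0.83, adjusted p = 0.0312). WT lay below the other groups, and the call was lost in 7 of the 19 leave-out fits.

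**Figure D4:**
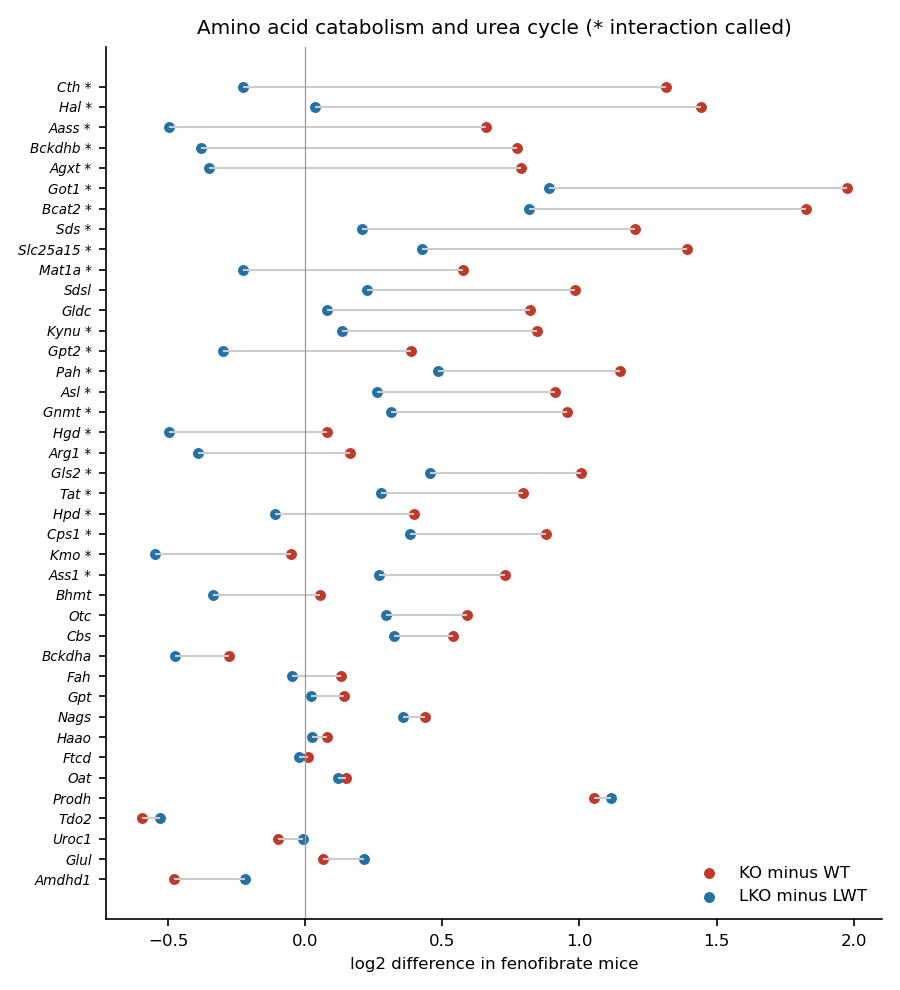
Each row is 1 of 40 genes of amino acid catabolism and the urea cycle, ordered by interaction; red points are KO minus WT and blue points LKO minus LWT (log2, fenofibrate mice). The red point lies to the right of the blue in 35 of the 40 genes, and 23 genes marked with an asterisk were called.

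Fatty acid and triglyceride synthesis had calls in the lower direction only. Of 29 genes 5 were called lower and 0 higher (17.2% called, beside 12.2% of all genes and 6.25% called lower), with a median interaction of -0.59. Elovl6, an elongase of long saturated fatty acids, read 4.57, 4.08, 3.19, 2.93 and 3.17 in KO against 4.74, 5.15, 5.45 and 5.32 in WT, while LKO (4.17 to 5.26) and LWT (3.78 to 4.96) overlapped (interaction -1.90 ± 0.52, adjusted p = 0.0133). Acaca, acetyl-CoA carboxylase, gave -1.28 ± 0.36 (adjusted p = 0.0168), and 3 other probes of it gave -1.41, -1.33 and -0.99. Mlxipl, the carbohydrate-response factor ChREBP, rose in LKO (0.46 ± 0.10) and read -0.22 in KO without a call (interaction -0.68 ± 0.14; a second probe gave -0.18). Gpam, the first acyltransferase of triglyceride synthesis, fell in both lines and further in KO (interaction -0.83 ± 0.27, adjusted p = 0.0402). Its call was lost in 14 of the 19 fits that leave out 1 array. Of 26 cholesterol synthesis genes 1 was called, Sc5d, a sterol desaturase, lower in KO (4.07 to 4.69) than in any other group (5.56 to 6.14 in WT, 5.27 to 5.87 in LKO and 5.51 to 5.98 in LWT). Of 25 bile acid genes 3 were called lower (12% called, beside 12.2% of all genes). They were the oxysterol hydroxylase gene Cyp39a1 (-1.53) and the export pumps Abcb1a (-0.93) and Abcc2 (-0.41). Cyp39a1 and Abcb1a lost their calls in 11 and 10 of the 19 leave-out fits, and Abcc2 lost its call in the authors' deposited table (-0.29, adjusted p = 0.209).

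Apolipoprotein genes had 4 called higher and 0 lower of 21 (19% called, beside 12.2% of all genes and 5.99% called higher). Apoa4, a component of triglyceride-rich lipoproteins, read 8.21, 7.42, 7.64, 8.27 and 7.73 in KO against 2.05, 4.21, 2.18 and 2.63 in WT, and 5.07, 5.78, 6.11, 6.22 and 6.47 in LKO against 1.82, 2.63, 4.47, 3.33 and 5.38 in LWT. It rose in both knockouts, and all 5 KO mice lay above every LKO mouse (interaction 2.68 ± 0.67, adjusted p = 0.00739). Saa4 gave 1.46 ± 0.28, the HDL receptor gene Scarb1 0.64 ± 0.16 and Apoc3, an inhibitor of lipoprotein lipase, 0.39 ± 0.10. Apoc3 lost its call under 3 other normalizations.

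Of 20 circadian clock genes 4 were called lower and 0 higher (20% called, beside 12.2% of all genes and 6.25% called lower), around a median of -0.39. In KO 6 of the 20 rose and 5 fell (median 0.05), while in LKO 7 rose and 0 fell (median 0.43). The list median thus went with a rise in LKO more than with a fall in KO. All mice were killed at the same zeitgeber time, so a level cannot be told from a phase. Nr1d2, the repressor REV-ERB beta, read -0.18, 1.21, 1.25, 0.64 and 1.09 in KO and 2.23, 1.88, 2.57 and 2.18 in WT, 2.29, 2.15, 2.20, 1.96 and 1.93 in LKO and 2.14, 2.02, 1.78, 1.73 and 2.18 in LWT. The KO mice lay below all others (interaction -1.55 ± 0.29, adjusted p = 0.000476), but a second probe gave -0.0041 and the authors' deposited table -0.0066. Hlf, a PAR-type transcription factor, was lower in KO in the same way (-0.78 ± 0.16, adjusted p = 0.0013). Wee1, a cell cycle kinase under clock control, gave -0.90 ± 0.28 (adjusted p = 0.0307) and lost its call in 9 of the 19 leave-out fits. Per1, a core repressor of the clock, differed through the liver line: it rose in LKO, where it read 4.58 to 4.87 against 3.91 to 4.38 in LWT, and read 3.99 to 4.38 in KO and 4.02 to 4.49 in WT (interaction -0.73 ± 0.15, adjusted p = 0.00108; a second probe gave -0.72). A window of Per1 is shown because it holds the E-box CACGTG, the letters bound by the clock's activators, here in capitals and searched on both strands.
Per1 (GRCm38.p6, RefSeq, plus strand, chr11:69098699-69098998): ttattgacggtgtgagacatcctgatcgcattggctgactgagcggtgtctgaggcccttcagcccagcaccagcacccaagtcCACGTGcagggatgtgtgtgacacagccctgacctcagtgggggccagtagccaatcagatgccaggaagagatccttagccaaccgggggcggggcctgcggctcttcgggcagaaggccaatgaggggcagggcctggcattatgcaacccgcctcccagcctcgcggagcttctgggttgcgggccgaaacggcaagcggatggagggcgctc
The E-box was present in windows of 5 of 18 clock genes with a window (27.8%), beside 10.8% of the 12012 tested genes with a window and 8.09% of all 27025 genes with one. The 18 come from the full clock list, and Bhlhe41, among the 5, was not detected on the arrays. Of the 4 called clock genes Per1 alone held it, and Wee1 had no window in the table.

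The acute phase response, the set of plasma proteins the liver makes in inflammation, had 6 called higher and 0 lower of 35 (17.1% called, beside 12.2% of all genes and 5.99% called higher), with a median of 0.40. Lcn2, lipocalin 2, read 4.99, 4.47, 8.48, 7.02 and 4.37 in KO and 3.14, 2.21, 1.42 and 2.34 in WT, 2.24, 2.91, 1.66, 2.86 and 2.61 in LKO and 1.83, 1.34, 4.92, 1.82 and 2.47 in LWT. KO replicates 3 and 4 stood well above the others and 1 LWT mouse reached the KO range (interaction 3.61 ± 1.07, adjusted p = 0.0238). Leaving out replicate 3 of KO, of LWT or of WT ended this call (adjusted p up to 0.0587). Serpina3n was steadier, 6.02, 5.78, 6.39, 6.27 and 5.62 in KO against 3.99 to 4.56 in WT, 4.86 to 4.93 in LKO and 4.51 to 5.47 in LWT (interaction 1.77 ± 0.30, adjusted p = 0.00015). Orm3, an orosomucoid, gave 2.50 ± 0.71 (adjusted p = 0.0175, up to 0.0533 without WT replicate 3 or 4). Fga, a fibrinogen chain, and Saa4 and Il1rn, which are also on other lists, were the other calls. Il1rn was lower in both knockouts, by -2.06 in KO and -3.49 in LKO, so its positive interaction was a smaller fall. S100a8, a calcium-binding protein of neutrophils, gave 3.06 ± 0.91 (adjusted p = 0.024, up to 0.06 without KO replicate 3 or WT replicate 2) and was highest in KO replicate 3 and LWT replicate 3, the mice with the highest Lcn2 of their groups. Of 13 lymphocyte and neutrophil markers (15.4% called, beside 12.2% of all genes) S100a8 was called higher and Ms4a1, a B cell marker, lower (-2.19 ± 0.70, lost in 11 of the 19 leave-out fits). Whether these cells took part in the acute phase result was not tested.

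Markers of other cells were measured beside these results, and in whole liver fewer cells of a type and less RNA per cell cannot be told apart. Of 7 detected red blood cell genes 6 were called higher and 0 lower (85.7% called, beside 12.2% of all genes and 5.99% called higher), with a median of 1.75. Hbb-b1 of that list was not detected. Averaged over the list and relative to the mean of all mice, the level ran from 0.71 to 1.5 in KO and from -1.0 to -0.34 in WT, from -0.66 to 0.44 in LKO and from -0.35 to 0.35 in LWT. Every KO mouse lay above every other fenofibrate mouse, and WT overlapped with LKO. The globin probe listed as Hbb-b2 read 6.67, 7.10, 6.70, 7.05 and 7.63 in KO and 3.19, 3.49, 4.07 and 2.98 in WT (interaction 3.69 ± 0.49, adjusted p = 4.32e-06), and Hba-a1 gave 1.75 ± 0.41. Globin genes are near-identical and their probes may share signal. Of 11 cholangiocyte markers 5 were called lower and 0 higher (45.5% called, beside 6.25% of all genes called lower), with a median of -1.08 and several near background. Krt7, a bile duct keratin, was above background in 2 of 5 KO mice and in all 4 WT mice (interaction -2.15 ± 0.43, adjusted p = 0.000946), and Epcam gave -2.07 ± 0.52, Tspan8 -2.05 ± 0.66 and Krt19 -1.55 ± 0.44. Tspan8 lost its call in 11 of the 19 leave-out fits. With normexp background and quantile normalization together the interactions were smaller, at -0.65 for Krt7, -0.46 for Tspan8 and -0.39 for Epcam, whose call was lost (adjusted p = 0.118). The list level ran from -0.64 to -0.16 in KO, from 0.07 to 0.67 in WT, from -0.14 to 0.26 in LKO and from -0.40 to 0.31 in LWT. KO thus overlapped with LWT. The median WT minus LWT difference of these markers was 0.85 (0 called), and the median KO minus LKO difference was -0.36 (0 called higher and 2 lower). Prom1, a membrane protein gene of bile duct epithelium on the female-biased list, gave -2.32 ± 0.31 (adjusted p = 3.9e-06).

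Other cell type lists had few calls in number. The share called was 15.4% of liver endothelial and 7.69% of stellate cell and fibroblast markers, beside 12.2% of all genes. No gene of 15 Kupffer cell, 4 adipocyte, 4 pancreatic acinar, 2 skeletal muscle or 2 kidney and gut markers was called. Of 13 liver endothelial markers Stab2, a scavenger receptor of sinusoids (0.78 ± 0.14, but 0.01 and 0.47 at other probes), and Pecam1, a junction protein of endothelium (0.49 ± 0.15), were called higher. Pecam1 lost its call in 4 of the 19 leave-out fits. Rgs5, a pericyte gene, was the 1 call of 13 stellate cell and fibroblast markers (1.73 ± 0.46, adjusted p = 0.012). What red blood cells, bile duct cells and other cells contributed to the gene group results was not tested.

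Xenobiotic metabolism was mixed, with 3 of 53 genes called higher and 7 lower (18.9% called, beside 12.2% of all genes). Sult1e1, estrogen sulfotransferase, read 3.54, 2.53, 4.59, 4.58 and 2.94 in KO and -0.10, -1.5, -2.05 and -1.65 in WT, 0.38, -0.27, -0.32, 1.54 and 1.21 in LKO and -0.53, -1.07, -0.63, -0.38 and -1.30 in LWT. It rose in both knockouts and further in KO, with no overlap of KO with any other group (interaction 3.67 ± 0.68, adjusted p = 0.000452). Cyp2c55 rose in LKO, to 1.27, 1.15, 1.43, 0.82 and 1.02 from -1.08, 0.07, -1.32, -1.33 and -1.07 in LWT, and had no call in KO (interaction -2.60 ± 0.43, adjusted p = 8.9e-05). Cyp2c37 rose in LKO (1.49 ± 0.27) and fell in KO (-0.71 ± 0.29), an interaction of -2.20 ± 0.40. A second probe of Cyp2c37 was higher in both knockouts, by 0.97 in KO and 1.5 in LKO, with an interaction of -0.53 (adjusted p = 0.545). Cyp3a16 gave -1.62 ± 0.51 (adjusted p = 0.0333) and lost its call in 9 of the 19 leave-out fits. Probes of Cyp2c and Cyp3a genes may share signal with close copies. Of the stress genes, Gclc, the rate-limiting subunit of glutathione synthesis, gave -0.97 ± 0.21 and Gpx1 0.39 ± 0.12. In all, 3 of 27 stress genes were called (11.1%, beside 12.2% of all genes). Gpx1 lost its call under 3 other normalizations, without a filter and in 5 of the 19 leave-out fits.

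Of the endocrine and sex-biased lists, 4 of 27 hepatokine and growth hormone axis genes (14.8%), 2 of 21 male-biased (9.52%) and 3 of 16 female-biased genes (18.8%) were called. The share over all genes was 12.2%. Igfbp3, a carrier of insulin-like growth factors, gave 1.16 ± 0.26 and Igf1 0.40 ± 0.12 (lost in 6 of the 19 leave-out fits), and Angptl8, a regulator of lipoprotein lipase, -1.03 ± 0.33. The call of Angptl8 was lost in 12 of those fits. Mup21, a urinary protein gene of male liver, gave 0.77 ± 0.18 and lost its call in the authors' deposited table (0.54, adjusted p = 0.105). Of 23 cell cycle genes 13% were called. Ccnb1 (1.32 ± 0.29) and Plk1 (1.18 ± 0.29), which drive mitosis, were called higher and Rrm2, of nucleotide synthesis, lower (-0.76 ± 0.25, lost in 12 of those fits). In interferon and antigen presentation 1 of 35 (2.86%) was called, Ifi27 (-1.23 ± 0.39, lost in 10 of them), and in gluconeogenesis 1 of 22 (4.55%), the glycolytic isomerase Gpi1 (-0.74 ± 0.15).

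Called genes were spread over all chromosomes and were not denser around Ppara. The share called ran from 7.72% of 803 genes on chromosome 17 to 16.2% of 1305 on chromosome 7. Within 10 Mb of the Ppara probes on chromosome 15, 34 of 280 genes (12.1%) were called, beside 48 of 363 (13.2%) on the rest of that chromosome. The largest in that window were Tomm22 (-2.06 ± 0.34), Lrrc24 (1.93 ± 0.64), Cdc42ep1 (-1.84 ± 0.33), Lgals1 (-1.70 ± 0.31), Bik (-1.58 ± 0.30) and Cdpf1 (-1.58 ± 0.21). Cdpf1 read 0.54, 0.95, 0.59 and 0.42 in WT and -0.86, -0.87, -0.82, -0.75 and -0.94 in KO, -1.19, -1.10, -0.95, -1.19 and -1.24 in LKO and -1.42, -1.32, -1.05, -1.52 and -0.89 in LWT, so that the WT mice stood apart. Lgals1, galectin 1, was also highest in WT (3.8 to 4.06), as was Bik, an apoptosis gene (-0.43 to 0.51 in WT and -2.37 to -1.22 in LWT). Lrrc24 lost its call in 11 of the 19 fits that leave out 1 array.

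The same contrast in vehicle mice, which are other animals, ran largely parallel. There 1318 genes (8.36%) were called. Of the 1930 genes called on fenofibrate, 1858 (96.3%) had the same sign in vehicle mice, beside 71.7% of all genes. The calls shared 844 genes, 43.7% of the fenofibrate calls and 64.0% of the vehicle calls, all with the same sign. Tested directly, the difference between the fenofibrate and vehicle interactions was called for no gene in limma (0%, with 672 genes at an unadjusted p under 0.05). In vehicle mice Pttg1 read 0.17, 0.90 and 0.61 in KO, 4.89, 4.90, 5.02 and 4.92 in WT, 4.72, 4.59, 4.79 and 4.79 in LKO and 4.77, 4.79, 4.93 and 4.82 in LWT. Igsf23 read 3.26, 2.41 and 3.27 in KO and -2.28 to -1.76 in WT, with -1.84 to -0.64 in LKO and -2.37 to -1.23 in LWT. For both genes the 3 KO vehicle mice stood apart from the 12 others, as on fenofibrate. Trim12a gave -8.50 ± 0.30 on vehicle beside -8.10 on fenofibrate, Pttg1 -4.27 ± 0.20 beside -4.24, and Igsf23 4.34 ± 0.43 beside 5.15. Amino acid genes had a median of 0.28 on vehicle, with 5 called higher and 1 lower, and Hal gave 0.75 ± 0.22 (adjusted p = 0.032). Cholangiocyte markers had no call on vehicle (median -0.25), and red blood cell genes 1 (median 0.63). The pericyte gene Rgs5 gave 0.07 ± 0.52 and Gdpd3 2.99 ± 1.31 (adjusted p = 0.169), neither of them called. Ppara itself was called on vehicle, -0.76 ± 0.23 (adjusted p = 0.034). With 3 KO vehicle mice the vehicle values are less precise.

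**Figure D5:**
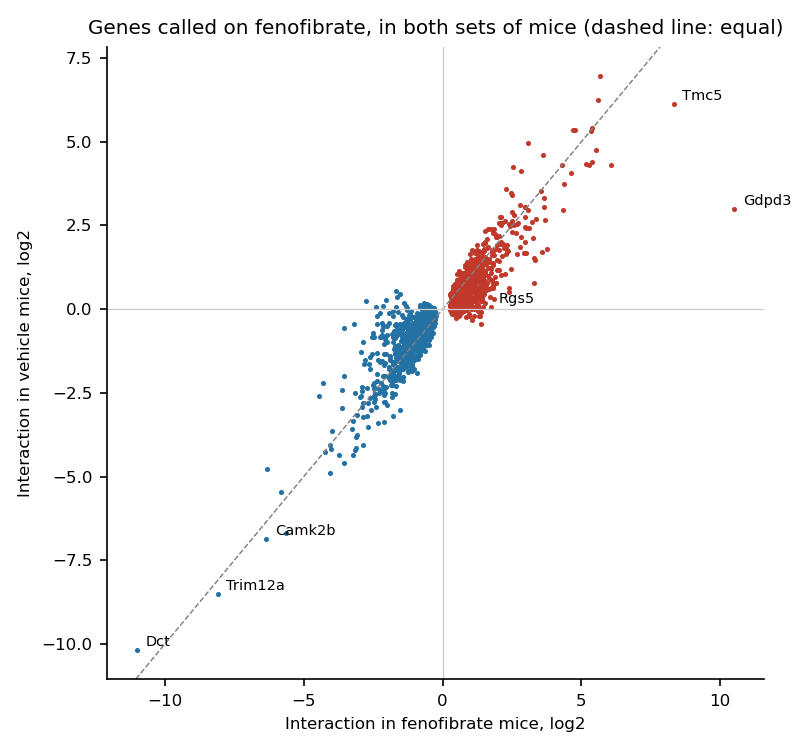
Each point is 1 of the 1930 genes called on fenofibrate, with the interaction in fenofibrate mice on the horizontal axis and in vehicle mice on the vertical axis (log2); red genes are higher and blue genes lower on fenofibrate. Most points lie near the dashed line of equality, Gdpd3 (10.51 and 2.99) well below it, and 1858 of them have the same sign in both sets of mice.

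Arrays were hybridized on 5 slides, and slide 5 alone held all 4 fenofibrate groups (2 KO, 2 WT, 1 LKO and 2 LWT arrays). On that slide 1923 of the 1930 called genes (99.6%) had the sign of the whole comparison, and these arrays also entered the calls. A fit with a term for each slide called 2380 genes, 1784 of them among the 1930.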

How the data were processed

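Livers of 34 male mice were measured on 34 one-color Agilent arrays, 1 mouse each, on 5 slides. The deposited intensity of each spot (the processed signal) is, per the file headers, the output of Agilent Feature Extraction 10.10.1.1, background-subtracted, with probe positions on mm9. Spots flagged as outliers and control spots were left out, spots of a probe averaged, log2 taken and each array's 75th percentile subtracted. Probes were kept where all arrays of 1 or more of the 8 groups read well above background, which left 31057 of 55681 probes. The brightest probe stood for a gene, and 15765 named genes were tested. Names came from RefSeq (GRCm38.p6), used for names only: of 32527 named probes 1147 kept the file's own name, and 23154 of all probes had none. Per array 50.6% to 63.1% of probes were above background, and the number of arrays limits the precision.

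All 34 arrays and 8 group means were fitted in limma 3.58.1 (R 4.3.3; lmFit, eBayes, Benjamini-Hochberg, threshold 0.05). A log2 table deposited by the authors holds 32446 probes, all 34 columns with a median of 7.63; set against the scanner values its slope was 0.927 to 0.956, and its centring and normalization are not given in the sources used here. It served as an alternative. After centring genes, its columns correlated with their own arrays at 0.943 to 0.976, but at 0.515 to 0.764 for the 3 arrays of slide 1, KO fenofibrate replicate 1 among them; the cause was not tested. The script was tested on simulated data.

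Genes were named by a rule: Ppara, the 12 largest interactions each way among called genes with a proper symbol, up to 4 called members of each list, up to 6 called genes within 10 Mb of the Ppara probes, up to 6 genes called for the fenofibrate minus vehicle difference (there were none) and 12 PPARA targets. Some genes that the rule takes are not reported here. The genes seen above or below background in KO mice alone were named after their values were seen. The members, lists and tests were chosen with earlier results of these data known. Replicate numbers are in the labels; deviations of same-numbered samples correlated from -0.117 to 0.235 over 27 pairs, so they were not taken as pairs.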

Additional observations from a re-analysis of the deposited data

Results flagged for a closer look

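The knockout effect differed between the lines, by the interaction test itself, in 1930 genes on fenofibrate and in 1318 genes on vehicle (limma, adjusted over 15765 genes).

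In 17 of the named genes the knockouts moved in opposite directions on fenofibrate, each past the threshold. Higher in KO and lower in LKO were Gdpd3 (interaction 10.51), Prelid2 (5.52), Hddc3 (4.62), Ccnb1 (1.32), Aass (1.15), Bckdhb (1.15) and Acox2 (1.12). Lower in KO and higher in LKO were Dct (-11.01), Trim12a (-8.10), Serpina12 (-6.32), Olfr1535 (-5.83), Adh6a (-4.45), Tmem25 (-3.72), Sstr2 (-3.61), Cyp2c37 (-2.20), Gclc (-0.97) and Gpi1 (-0.74). Serpina12 was below background in every KO mouse and in some WT mice, so its fall in KO has no bound. Set against the dimmest signal still well above background, the fall in KO was at least 1.56-fold for Adh6a and 1.16-fold for Sstr2. A second probe of Cyp2c37 was higher in both knockouts, by 0.97 in KO and 1.5 in LKO.

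In 26 of 436 sets of mice, 1 mouse lay far from the rest of its group by Dixon's test (5.96%; chance alone marks about 1 in 20). Among the genes with the largest interactions, Gdpd3 was 1.44 in LKO replicate 5, with the next mouse at -3.48, and Pbx4 was -3.62 in LWT replicate 3, with the next at 1.18. Dct was -0.13 in LWT replicate 5 and 5.21 in LKO replicate 5. Below background, Tmc5 stood at -4.03 and Olfr1535 at -3.6 in LWT replicate 3. Hddc3 was low at -2.39 in LWT replicate 4, Kcne3 at -1.69 in WT replicate 2 and Sugct at 3.53 in LWT replicate 5. Lrrc24 was high at -0.53 in LWT replicate 5, while Tomm22 (3.33) and Bik (-0.43) were low in WT replicate 4.

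Among the PPARA targets, Cd36 was low at -0.45 in LKO replicate 3, Mogat1 low at 1.01 in LWT replicate 5, Il1rn high at 0.13 in LWT replicate 5 and Fgf21 high at -4.46 in KO replicate 3. KO replicate 3 was also low for Mlxipl (5.56) and Mup21 (8.68), and KO replicate 1 was low for Angptl8 (2.79). In LWT replicate 2 Cyp2c55 was high (0.07) and Tat low (8.27), and in LWT replicate 3 Ifi27 was high (8.1). Asns was high in LKO replicate 5 (5.41) and LWT replicate 5 (4.57). Tspan8 was low in WT replicate 4 (-3.73) and high in LKO replicate 2 (-2.98).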

How the results depend on the processing

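The count of genes called on fenofibrate ran from 1590 without a filter to 2380 with slide as a block, and from 1535 to 2031 on leaving out 1 array; the authors' deposited table gave 1684. With the replicate block it was 2232 genes, 1864 of them shared, and 1523 on vehicle. That block moved no count over all genes by more than 1.5 times, and its numbers were not taken as pairs of mice. A fit on the 7 arrays of slide 5 alone, an alternative chosen after seeing the data, called 37 genes, 34 of them shared. Slide as a block gave 144 genes for WT minus LWT. The vehicle count ran from 1001 to 2009 on leaving out 1 array, lowest without KO replicate 3 and highest without KO replicate 1. WT minus LWT ran from 47 to 132, lowest without WT replicate 3 and highest without LWT replicate 3, both on fenofibrate, and the fenofibrate minus vehicle difference from 0 to 1. Calls in xenobiotic metabolism were 5 on the 19 fenofibrate arrays and 4 without a filter. Mitochondrial oxidation had 2 calls with the slide block, 3 with quantile normalization and 2 with normexp background. Fatty acid synthesis had 9 with the slide block, and peroxisomal oxidation 2 in the authors' table. Cholangiocyte markers had 2 calls among probes above background on all arrays, and their median was -1.38 with the slide block, -0.46 with normexp and -0.66 in the authors' table. No result tried turned its direction past the threshold. Of 98 called named genes 74 kept their call on leaving out each of 19 arrays and 69 under all 10 alternatives. Probes near background bound a fold and do not measure it.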
